A study of Mus musculus with 3 samples.

Results

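The SMC family (structural maintenance of chromosomes) was followed in resting naive CD4 T cells through 7 genes, Smc4, Smc2, Smc1a, Smc3, Smc6, Smc5 and Smchd1, out of 14355 genes counted. The 7 were taken by name. The family was chosen by measured values, the level of Smc4 against the other condensin and cohesin subunits and the change over CD5 classes on each plate, so levels and class differences are given as descriptions with no test. The cells came from C57BL/6 mice of 8 to 12 weeks, males and females pooled, from spleen and lymph node, and were sorted and lysed with no culture or treatment. The sort took live singlets that carried TCRb, CD4, CD62L and CD5 and lacked CD8, CD25 and CD44, across the whole range of CD5, a surface protein that follows the strength of tonic self-recognition by the T cell receptor. The authors then classed each cell as CD5 High, Middle or Low. No knockout, transgene or stimulated group is among the samples, and nothing in the labels ties a plate to an animal. The study used CD5 to ask how naive cells differ along a gradient of self-reactivity.

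SMC proteins are long coiled-coil ATPases that pair with each other and, closed by a kleisin subunit, form rings around DNA that build or hold chromatin loops. Smc4 and Smc2 are the ATPase pair of both condensins, which compact chromosomes in mitosis, and condensin II has been tied to compact chromatin in quiescent mouse T cells. Smc1a and Smc3 are the pair of cohesin, which holds sister chromatids together and shapes interphase loops, Smc6 and Smc5 the pair of a complex active in DNA repair, and Smchd1 a divergent relative needed to keep the inactive X chromosome silent.

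The 697 cells lay on 3 plates of 172, 201 and 324 cells, and each plate is 1 labelled sample. They held 3244019 unique molecular identifiers (UMIs, each standing for 1 captured transcript molecule), with a median of 3749, 5449 and 3952 per cell on plates 1, 2 and 3. High, Middle and Low classes had 174, 349 and 174 cells. The same cell number was used on more than 1 plate for 285 of 372 numbers. Whether an equal number means an equal primer was not checked here. Of 10 naive CD4 T cell markers 9 were found, with means from 415 UMIs per 1000000 (CPM) for Tcf7 to 1374 for Cd4. Markers of other cells were lower, with 2.91 CPM for Cd8a, 4.16 for Cd79a, 24.8 for Foxp3 (at 0 on plate 1), 32.1 for Klrd1 and 66.2 for Cst3, the last in 19.9% of cells. Cd8b1 had 11.1 CPM, and the regulatory T cell markers Ikzf2 and Il2ra had 27.4 (22.0 on plate 1) and 8.43 CPM. The other NK and myeloid markers listed, Klrb1c, Ncr1, Lyz2 and Csf1r, were not found. Plate 2 stood apart on the CPM of the sorted protein's own transcript. Cd5 had 282 CPM in High, 245 in Middle and 259 in Low cells there. It had 638 CPM in High and 96.6 in Low cells of plate 1, and 335 and 49.6 on plate 3. The share of cells with a Cd5 UMI was highest in High cells on plate 2 too, at 56.4%, against 43.0% in Middle and 41.3% in Low cells. It was 63.3% in High and 22.9% in Low cells of plate 1, and 51.4% and 13.8% on plate 3. Whether the CD5 values and classes of plate 2 belong to the wells they are assigned to was not tested, and every class value of that plate depends on it. Class differences are therefore given plate by plate.

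Smc4 was the most abundant SMC transcript by a wide margin. It had 662, 831 and 635 CPM on plates 1, 2 and 3 (mean 709 ± 106, SD, n = 3 plates), above 98.9% of all genes, and ranked 164 in the table. A Smc4 UMI was found in 65.3% of cells (95% exact binomial interval 61.6 to 68.8, covering counting error only). The plates differed by less than the gap to any other member.

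The other ATPase of condensin, Smc2, was the least abundant member. It had 6.88, 13.5 and 28.5 CPM on plates 1, 2 and 3 (mean 16.3 ± 11.1, SD, n = 3), resting on 60 UMIs in 39 cells, or 5.60% of cells (interval 4.01 to 7.57). Plate 3 was the highest and plate 1 the lowest for Smc2, an order that Smc4 did not share. The Smc4 level was 96.1, 61.7 and 22.3 times that of Smc2 on plates 1, 2 and 3, although the proteins are taken up into condensin as a pair. These ratios rest on few Smc2 UMIs, found in 1.74%, 3.98% and 8.64% of the cells of plates 1, 2 and 3. They compare transcripts, and the proteins of the pair were not measured here. Divided by transcript length the ratio of the means was 54.5, against 43.6 as counted.

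The cohesin pair stood level. Smc1a had 151, 145 and 130 CPM on plates 1, 2 and 3 (mean 142 ± 11.2, SD, n = 3) and Smc3 had 171, 125 and 121 CPM (mean 139 ± 27.7). Their ratio lay between 0.887 and 1.16 over the plates, so the pair did not differ beyond its spread. Smc1b, the cohesin ATPase used in meiosis, had 1 UMI in all cells.

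The repair pair was unequal. Smc6 had 247, 218 and 206 CPM on plates 1, 2 and 3 (mean 224 ± 20.9, SD, n = 3), in 43.9% of cells, which made it the next member after Smc4 at 31.5% of the Smc4 level. Smc5 had 45.4, 58.4 and 49.9 CPM (mean 51.2 ± 6.58), in 12.2% of cells. Smc6 was above Smc5 in each of the 3 plates, by 3.74 to 5.43 times. Smchd1 had 123, 179 and 149 CPM (mean 150 ± 28.1), in 36.3% of cells.

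In order of level, Smc4 came first, then Smc6, then Smchd1, Smc1a and Smc3 with overlapping plate ranges, then Smc5 and last Smc2. No plate range of Smc4, Smc6, Smc5 or Smc2 overlapped that of the member next to it. The order of these 4 was the same per kb of transcript, with 164 CPM per kb for Smc4, 39.9 for Smc6, 9.01 for Smc5 and 3.01 for Smc2. UMIs count a molecule once whatever its length, so the values as counted are the main ones. As in any pool of RNA, fewer cells that express a gene and less RNA per cell cannot be told apart in these sums.

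**Figure D1:**
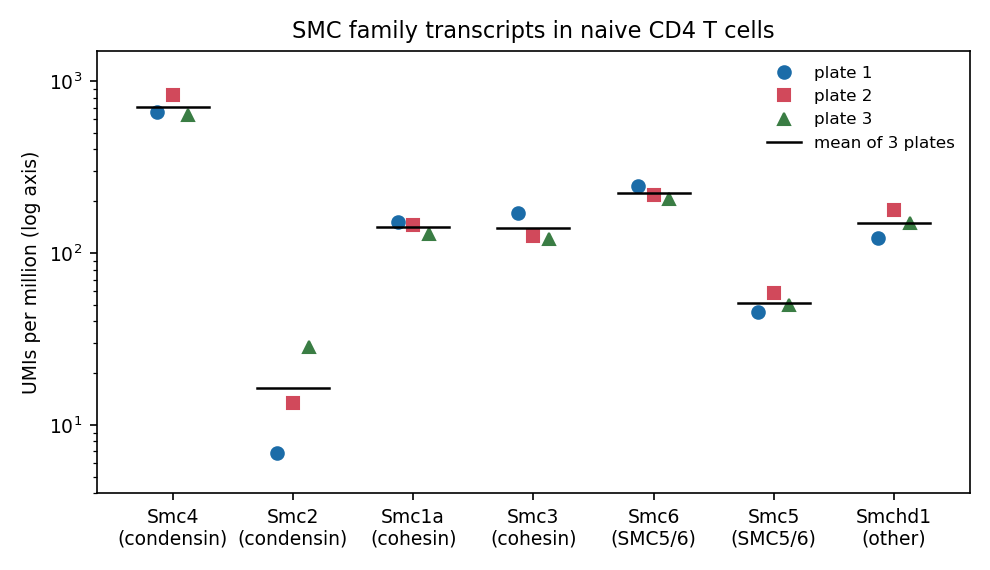
Level of the 7 SMC transcripts in all cells of each plate, in UMIs per 1000000 on a log axis, with the mean of the 3 plates as a bar. Smc4 lies between 635 and 831 on every plate and Smc2 between 6.88 and 28.5, with the cohesin pair Smc1a and Smc3 at one height in between.

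The libraries were primed with an oligo of 24 T, so stretches of A inside a transcript are a property of the members that can be read beside their levels. Windows of 10 bases with at least 8 A, leaving out the last 20 bases, numbered 23 in the longest coding Smc4 transcript, or 5.33 per kb, all in the coding sequence. Its 3′ UTR has 100 bases. The density was 4.28 per kb in Smc6, 3.70 in Smc2, 2.64 in Smc5, 2.06 in Smc3, 1.56 in Smchd1 and 1.07 in Smc1a. The highest densities thus fell on the most abundant member, Smc4, and on the next, Smc6, but also on the least abundant, Smc2, and the part of A stretches in the levels was not tested. The longest run of A of the condensin pair and of Smc6 is shown in capitals in 30 bases of its transcript (GENCODE M21, GRCm38, 5′ to 3′), because they are the highest, the lowest and the next highest in level.
Smc4, bases 1711 to 1740, coding sequence: agagaaagaagAAAAAAAAttaaaagaggt
Smc2, bases 1025 to 1054, coding sequence: tcagagaatgAAAAAAAAAtaaaggctctc
Smc6, bases 4809 to 4838, 3′ UTR: gtttcctgtAAAAAAAAAAAAtggtatttg

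Smc4 lies on chromosome 3 at 69004738 to 69034623, plus strand (mm10, GENCODE M21). Its start is 167 bases from the start of Ift80 (68892499 to 69004570, minus strand), which encodes a subunit of intraflagellar transport and is read away from Smc4. The end of Smc4 is 664 bases from the end of Trim59, on the minus strand. Neither neighbour overlaps Smc4 in the annotation. Ift80 had 135, 205 and 149 CPM on plates 1, 2 and 3 and Trim59 had 66.1, 55.7 and 38.5 CPM.

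Intron 5 of Smc4 holds the microRNA genes Mir15b and Mir16-2, on the strand of Smc4. These microRNAs are known as brakes on cyclins and Bcl2. Their levels were not analysed here. Their main mature forms share the seed (bases 2 to 8, in capitals) and differ after it, and they are shown because a Smc4 primary transcript contains both (RefSeq, GRCm38.p6).
miR-15b-5p, 69009775 to 69009796: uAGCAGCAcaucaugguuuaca
miR-16-5p, 69009918 to 69009939: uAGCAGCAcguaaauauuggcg

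The other members are spread over the genome: Smc2 on chromosome 4 at 52439243 to 52488260, plus strand; Smc1a on chromosome X at 152016428 to 152062694, plus strand; Smc3 on chromosome 19 at 53600398 to 53645833, plus strand. Smc5 lies on chromosome 19 at 23206451 to 23273897, minus strand, Smc6 on chromosome 12 at 11265886 to 11319785, plus strand, and Smchd1 on chromosome 17 at 71344489 to 71475343, minus strand. Smc1a and Smc6 also start next to a divergent gene, 132 bases from Ribc1 and 84 bases from Gen1. These 2 neighbours were nearly silent, with 2 UMIs for Ribc1 and 1 for Gen1, where Ift80 had 535. Smchd1 overlaps the lincRNA Gm26561 on the other strand and Gm4707 on its own, and the sources used here do not say whether the authors counted by strand. Other annotated genes that overlap a member were Tmc4-ps in Smc2, Gm15267 in Smc1a, Mir7675 in Smc6 and Gm37639, Gm38220 and AC107664.1 in Smchd1. None of them is among the genes counted.

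Promoters of 250 bases before to 50 after the start were at hand for 6 of the 7 members (RefSeq, GRCm38.p6). The cell cycle genes homology region, a 6-base element of genes that peak in mitosis, was searched as TTTGAA on both strands. It was found in the windows of Smc2, Smc6 and Smchd1 and in 17.9% of 32851 promoters, and not in the windows of Smc1a, Smc3 and Smc5. The Smc5 window, 23272550 to 23272849 on chromosome 19, lies inside the gene as placed above, which starts at 23273897 on the minus strand. The sequence before that start was not searched, so nothing is read from the missing matches of Smc5. CCAAT was found in Smc2 and Smc1a and in 37.4% of all promoters. The window of Smc2, the member nearest to silence in these resting cells, is shown with matches to TTTGAA or its reverse complement in capitals (chr4:52438971-52439270, plus strand, 5′ to 3′).
Smc2: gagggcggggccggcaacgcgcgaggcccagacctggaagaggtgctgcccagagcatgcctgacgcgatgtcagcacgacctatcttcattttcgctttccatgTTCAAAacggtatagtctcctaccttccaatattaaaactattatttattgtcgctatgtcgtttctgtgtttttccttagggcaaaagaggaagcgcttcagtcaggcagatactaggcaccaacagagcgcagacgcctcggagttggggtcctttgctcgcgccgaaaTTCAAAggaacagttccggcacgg

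Of the condensin partner genes, the condensin II subunits Ncapd3 and Ncaph2 were the highest, while Ncapg2 of the same complex was near the bottom. Of 6 non-SMC condensin subunits 5 were found in the table. Ncapd3 had 46.8, 50.3 and 66.2 CPM on plates 1, 2 and 3 and Ncaph2 had 62.0, 35.9 and 59.1 CPM. Ncapd2 and Ncaph, of condensin I, had 17.2 ± 2.61 and 2.21 ± 1.75 CPM (SD, n = 3), and Ncapg2 had 2.94 ± 1.25. The plate ranges of Ncapd3 and Ncaph2 overlapped each other and lay above those of the other 3 subunits and of Smc2. Smc4 lay above all of them on every plate.

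Of the 16 cohesin partners found, the loader Nipbl, the ring subunits Stag2 and Rad21 and Ctcf had the highest transcript levels. Nipbl, the cohesin loader, had 205 ± 57.5 CPM, the subunit Stag2 179 ± 41.5, the kleisin Rad21 136 ± 10.2 and Ctcf, the DNA-binding boundary factor, 129 ± 16.2 (SD, n = 3 plates each). Smc1a and Smc3 lay inside the range of these 4. The releasing factors were lower, with 78.7 ± 19.2 CPM for Wapal, 45.1 ± 8.70 for Pds5a and 40.8 ± 8.47 for Pds5b. The lowest were Cdca5 (sororin, which protects cohesion) with 6 UMIs, Espl1 (separase, which cuts the ring in anaphase) with 3 and Sgol1, a guardian of the centromere, with none, while Pttg1 (securin, the inhibitor of separase) had 81.7 ± 28.9 CPM. A count of 0 allows up to 3 counts in all cells.

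Of 7 SMC5/6 partners, Nsmce4a had 72.4 ± 16.0 CPM, Nsmce1 58.6 ± 14.6 and Fam178a (Slf2, a loading factor) 45.4 ± 17.7 (SD, n = 3), close to Smc5 and below Smc6. The other 4 were lower, with 18.9 ± 3.82 CPM for Nsmce2, 18.6 ± 9.09 for Ankrd32, 16.5 ± 2.38 for Ndnl2 and 1.25 ± 1.46 for Eid3. Of the Smchd1 partners, Xist, the RNA that coats the inactive X, had 164 ± 46.9 CPM in these pools of both sexes and Lrif1, which binds Smchd1, 53.5 ± 1.40. Topoisomerase Top2b, the form of resting cells, had 280 ± 24.5 CPM and Top2a, the form of dividing cells, 5.55 ± 2.79.

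**Figure D2:**
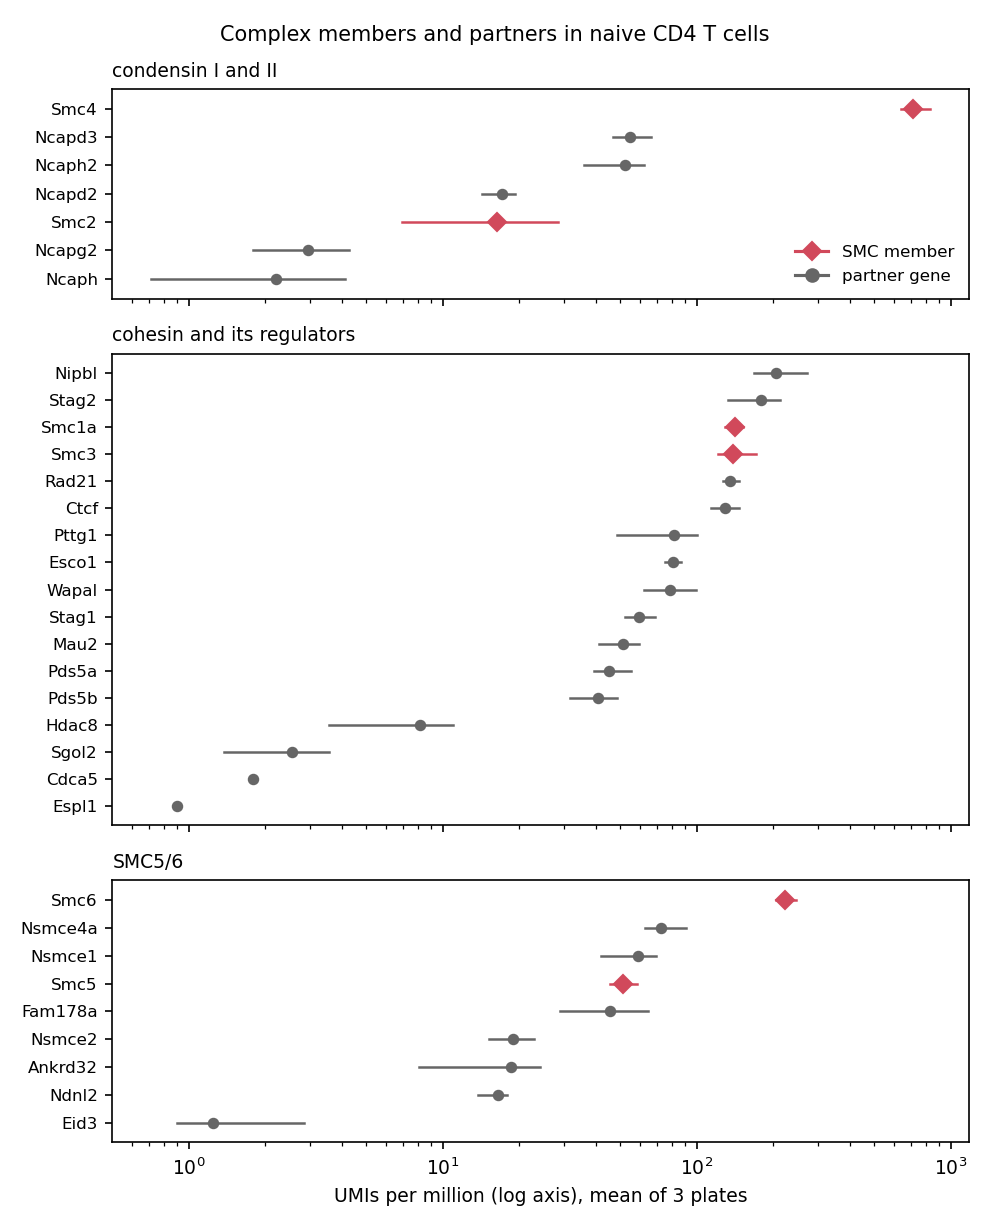
Mean level over 3 plates of SMC members (diamonds) and their partner genes (circles), with lines from the lowest to the highest plate above 0, in UMIs per 1000000 on a log axis. Sgol1, at 0, is not drawn. Smc4 at 709 stands apart from every condensin partner, while Smc1a and Smc3 at 142 and 139 lie among Nipbl, Stag2, Rad21 and Ctcf.

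Transcripts of dividing cells were scarce. Of 15 listed cycling genes 12 were found, led by Cenpf with 15.7 ± 4.63 CPM, Tpx2 with 6.40 ± 3.32, Mki67 with 5.73 ± 2.08 and Top2a, and 110 cells (15.8%) held a UMI of any of them. In those cells Smc4 had 731, 803 and 679 CPM on plates 1, 2 and 3, against 642, 837 and 622 in the other cells, so the order of the groups changed on plate 2. Without them the Smc4 level was 700.4 CPM, and the other members' levels moved by less than their spread between plates. Cells with a cycling UMI also had more UMIs, with medians of 5900, 6576 and 5309, against 3324, 5322 and 3409 in the other cells. Of the 39 cells with a Smc2 UMI 28.2% held a cycling UMI (exact interval 15.0 to 44.9%), against 15.0% of the 658 cells without (12.4 to 18.0). Thinned at random to 2119 UMIs per cell, a depth reached by 557 cells, the counts were 4 of 20 cells with a Smc2 UMI (interval 5.73 to 43.7%) and 47 of 537 without (up to 11.5%), and the intervals overlap.

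Smc4 was unevenly spread over single cells. The median cell had 2 UMIs, 242 cells had none, 65 cells had 10 or more and the highest had 43. At equal depth the variance of Smc4 over cells was 2.50, 3.18 and 2.80 times its mean on plates 1, 2 and 3, against medians of 1.61, 1.77 and 1.52 for the 100 genes nearest in mean. Of those genes 91.0%, 96.0% and 97.0% had a lower ratio. Ift80 was as uneven, with ratios of 3.11, 2.40 and 2.68 and 98.0%, 93.0% and 100% of near genes below it. Smc6 and Smchd1 lay near or under the middle of genes like them, with 64.0%, 5.00% and 48.0% of near genes below Smc6 and 56.0%, 11.0% and 15.0% below Smchd1. Smc5 was above the middle on each plate, with 86.0%, 83.0% and 65.0% of near genes below it. Smc3 was above it on plates 1 and 2 and at it on plate 3, and Smc1a was above it on plates 1 and 2 and below it on plate 3 (80.0%, 90.0% and 37.0%).

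Over the CD5 classes Smc4 changed in opposite directions on different plates. In Low, Middle and High cells it had 469, 657 and 871 CPM on plate 1 and 510, 623 and 819 CPM on plate 3. On plate 2, the plate whose classes differed little in Cd5 CPM, it had 1103, 734 and 787 CPM. High cells averaged 826 ± 42.2 CPM and Low cells 694 ± 355 (SD, n = 3), the groups overlapped, and the spread between plates lay in the Low class. The log2 difference of High minus Low was 0.89, -0.49 and 0.68 on plates 1, 2 and 3 (mean 0.36, SD 0.74). The mean was 0.79 without plate 2, 0.10 without plate 1 and 0.20 without plate 3, so the mean depends on which plates enter it.

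Within cohesin the subunits did not move together. Smc1a had 192, 202 and 156 CPM in High cells of plates 1, 2 and 3, against 130, 112 and 152 in Low cells. It was higher in High cells in 3 of 3 plates, by log2 0.56, 0.85 and 0.04 (mean 0.48, and 0.30 without plate 2), and the groups did not overlap. Middle cells had 140, 130 and 109 CPM, nearer to Low cells on plates 1 and 2 and below both classes on plate 3. Of all 4813 tested genes 11.9% were higher in 3 of 3 plates and 4.05% were higher without overlap. With each plate cut into 4 bins of CD5, Smc1a had 190, 215 and 147 CPM in the highest bin of plates 1, 2 and 3. The lowest bin had 117, 110 and 149 CPM, so the direction on plate 3 depends on where the cells are cut. Smc3 had 86.0, 230 and 81.2 CPM in High cells, against 237, 51.9 and 149 in Low cells, with log2 differences of -1.46, 2.15 and -0.88. Plate 2 thus ran opposite to plates 1 and 3 for Smc3, as it did for Smc4, but with the signs exchanged.

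Smchd1 and Smc5 were lower in High cells in 3 of 3 plates, as were 11.9% of tested genes. Smchd1 had 96.1, 164 and 115 CPM in High cells of plates 1, 2 and 3, against 121, 219.5 and 163 in Low cells, a log2 difference of -0.33, -0.42 and -0.50 (mean -0.42, SD 0.086). Its groups overlapped between plates. With cells thinned to equal depth the mean was -0.12. Smc5 differed by -0.28, -0.82 and -0.82, on 6 to 20 UMIs per sum. Smc6 had 217, 164 and 233 CPM in High cells, against 222, 211 and 190 in Low cells, with no common direction. Smc2 had 3, 4 and 9 UMIs in High cells and 0, 5 and 10 in Low cells, too few to compare.

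**Figure D3:**
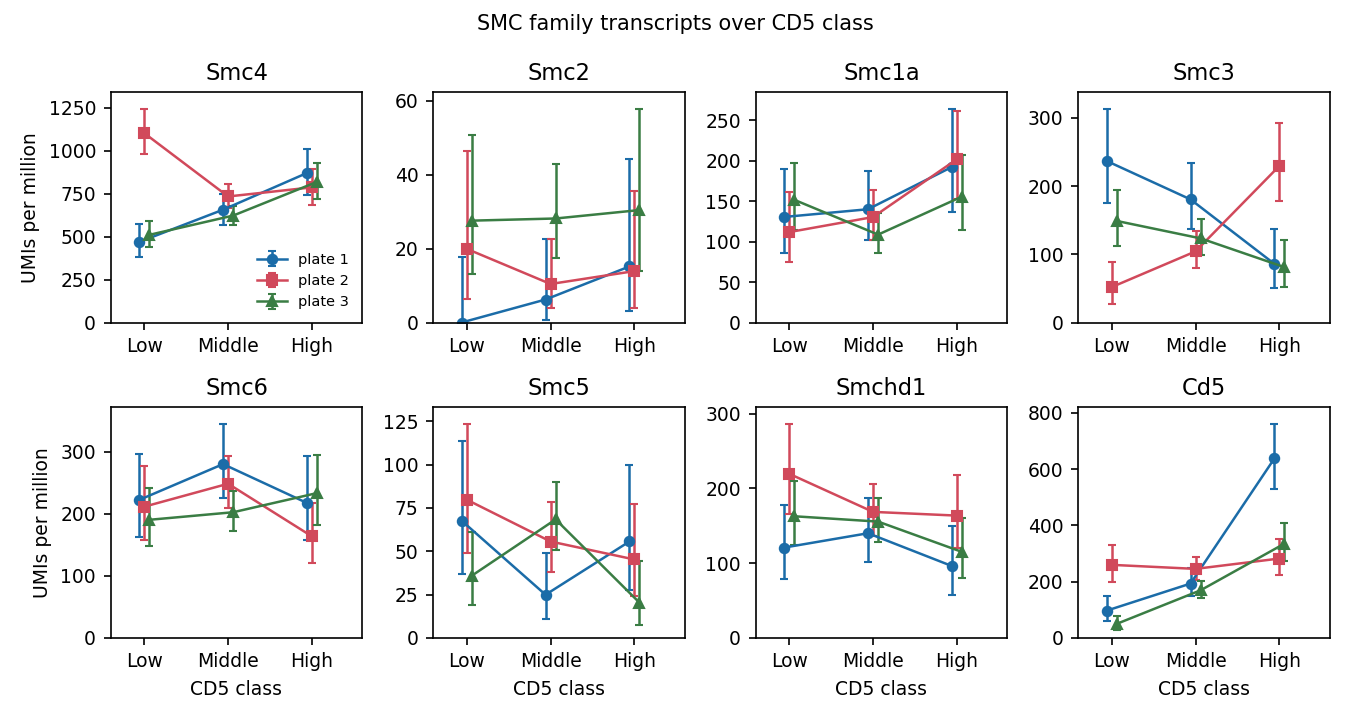
Level of each SMC transcript, and of Cd5, in Low, Middle and High CD5 cells of each plate, in UMIs per 1000000, with exact Poisson intervals that cover counting error only. Smc4 climbs with CD5 class on plates 1 and 3 and starts at 1103 in Low cells of plate 2. Smc3 runs the other way. Cd5 CPM differs little between the classes of plate 2.

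None of the partner genes passed the test over CD5 classes. The counts of cells summed by plate and class were tested with edgeR (quasi-likelihood, plate as a block, Benjamini-Hochberg adjusted over all genes, two-sided). Of 30 partners found, 18 passed the filter on low counts and 0 were called, with the smallest adjusted p at 0.773, and 9 of the 18 were positive, with a median log2 of 0.05 against 0.002 for all tested genes. Of all 4813 genes tested 0.187% were called (9 genes, Cd5 among them), and 296 had an unadjusted p under 0.05. With DESeq2 no gene was called, and with edgeR 0, 20 and 0 were called without plates 1, 2 and 3. With plate as a block, the p-values here rest only on counting error and on how group differences within plates vary from plate to plate. Nothing says that plates are separate animals, so that variation may be technical.

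Over 12 sums of cells (4 bins of CD5 on each plate, plate means removed) the genes most like Smc4 among 638 compared were Tet3 (Pearson r 0.80), an enzyme that oxidises methylcytosine, Cd5 (0.80), Atp11b (0.77), a lipid flippase, Hmgb1 (0.72), a chromatin protein, and Gm17821 (0.71). Smc6, the other member abundant enough to compare, had r of -0.11 and ranked 356. The sums share libraries in groups of 4, and Smc4 was picked for its pattern over CD5, so these are descriptions.

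The share of RNA given to the SMC transcripts was then compared between cells with many and few UMIs, a split that played no part in choosing the genes. Each plate was split at its median of UMIs per cell, and each side was summed. Of the members, 6 passed the filter and 0 were called, where 0.418% of 5738 tested genes were (24 genes). Smc4 had 704, 795 and 638 CPM in RNA-rich cells of plates 1, 2 and 3, against 531, 925 and 628 in RNA-poor cells, and the groups overlapped. Its fitted log2 difference was 0.00 (SE 0.12, edgeR adjusted p = 0.998). In 13 alternatives it lay between -0.11 and 0.19. The highest came with cells split by their UMIs per spike-in UMI (edgeR adjusted p = 0.87).

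Of the other 5 members tested, none had 1 direction on all 3 plates. Smc1a had 154, 122 and 120 CPM in RNA-rich cells, against 145, 204 and 156 in RNA-poor cells (log2 -0.43, SE 0.21, edgeR adjusted p = 0.729), with -0.25 without plate 2 and -0.57 without plate 1. Smchd1 had 143, 192 and 143 CPM in RNA-rich cells, against 61.5, 143 and 163 in RNA-poor cells (log2 0.30, SE 0.23, adjusted p = 0.876 by edgeR), with 0.09 without plate 1, 0.22 without plate 2 and 0.71 without plate 3. Smc5 differed by 0.25 (SE 0.37), and by 0.11, 0.63 and 0.12 without plates 1, 2 and 3. Smc6 differed by 0.14 (SE 0.19), between -0.04 and 0.28 with 1 plate left out, and Smc3 by -0.03 (SE 0.22), between -0.14 and 0.04. Smc2 had 5, 14 and 31 UMIs in RNA-rich cells of plates 1, 2 and 3, against 0, 1 and 9 in RNA-poor cells, and stayed under the filter. No difference was read from these counts. None of the 19 partners tested was called (smallest edgeR adjusted p = 0.52), and 8 were positive, with a median log2 of -0.09 against -0.003 for all tested genes. The genes that were called lay elsewhere, with 19 lower and 5 higher in RNA-rich cells. Among them Kcnq1ot1, Gm17821 and A130077B15Rik fell in RNA-rich cells by 1.15, 1.13 and 1.35 on the log2 scale, and Mir5109 (0.82) and Malat1 (0.52), a nuclear RNA, rose. The other higher genes were mtCo1, Olfr1033 and Rpl14. With DESeq2 5 genes were called. Without plates 1, 2 and 3 in turn edgeR called 12, 0 and 14.

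**Figure D4:**
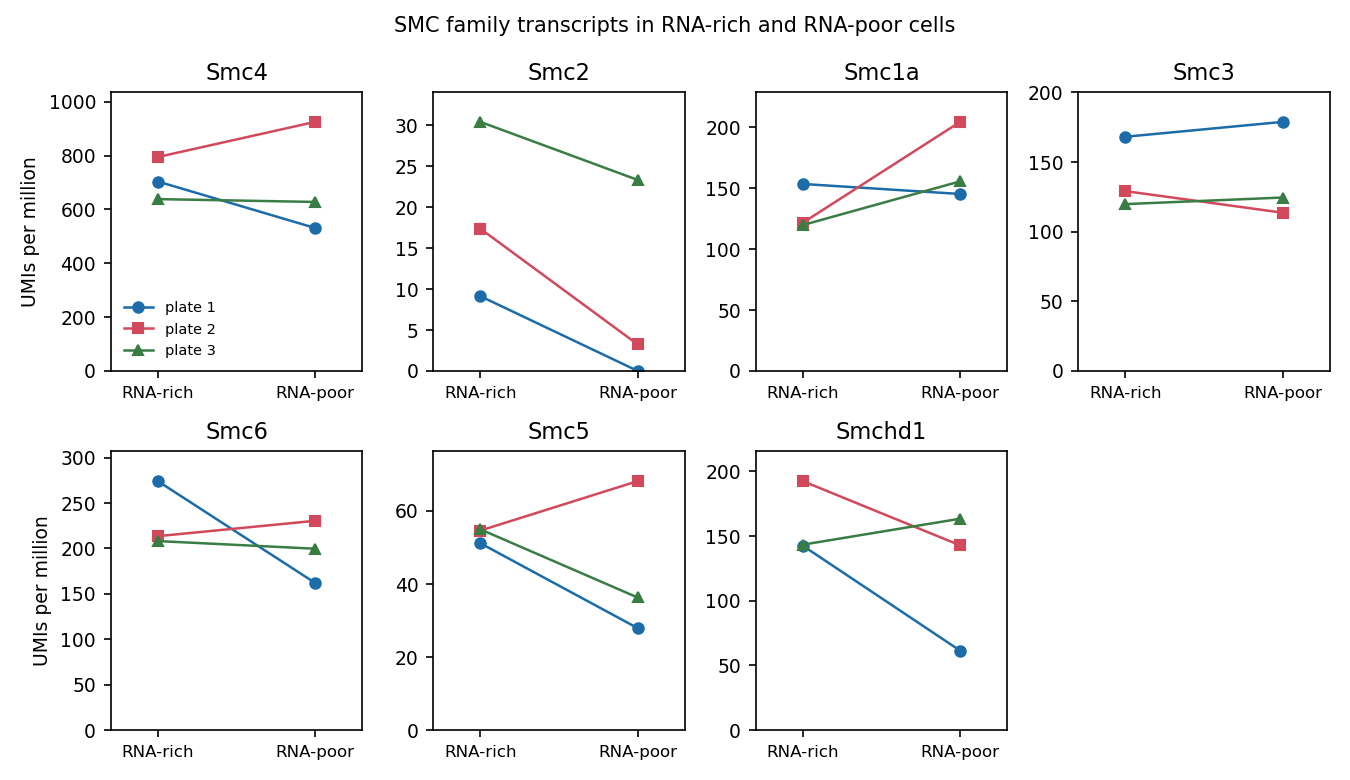
Level of each SMC transcript in RNA-rich and RNA-poor cells, split at the median of UMIs of each plate, in UMIs per 1000000, a line per plate. Smc4 has 704, 795 and 638 in RNA-rich cells, against 531, 925 and 628 in RNA-poor cells, and Smc2 rests on 0, 1 and 9 UMIs in RNA-poor cells.

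Cells were then split by the Smc4 UMIs left after thinning to equal depth, to find which transcripts go with Smc4 from cell to cell. After thinning to 2119 UMIs, 68, 101 and 137 cells of plates 1, 2 and 3 held Smc4 and 56, 75 and 120 did not. Smc4-negative thus means no Smc4 UMI after thinning, and some of these cells held one before it. On plate 2, 56 of all 201 cells lacked a Smc4 UMI before thinning, fewer than the 75 negative cells. Of 2930 genes tested 12 were called by edgeR, or 0.410%, 6 higher and 6 lower, and 245 had an unadjusted p under 0.05. Of the members, 4 passed the filter and 0 were called.

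Ift80, the divergent neighbour of Smc4, was the called gene with the largest log2 difference. It had 208, 360 and 186 CPM in Smc4-positive cells of plates 1, 2 and 3, against 59.0, 101 and 122 in Smc4-negative cells, and the groups did not overlap, as for 6.55% of tested genes in that direction. The fitted log2 difference was 1.24 (SE 0.26, edgeR adjusted p = 0.00287), with 1.64, 1.71 and 0.51 on the 3 plates. It was positive in 15 of 15 alternatives, between 0.95 and 1.78, and was called in 9 of them. It was not called without plate 1 (edgeR adjusted p = 0.0515) or without plate 2 (0.95, adjusted p = 0.544), without cells that held a cycling UMI (1.22, adjusted p = 0.13), by DESeq2, without the plate block, or in 1 of 4 other random thinnings. Trim59, at the other end of Smc4, had 55.6, 79.6 and 58.6 CPM in positive cells, against 42.1, 31.5 and 39.3 in negative cells (log2 0.72, SE 0.53, edgeR adjusted p = 0.866).

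Among the members Smc6 differed most. It had 285, 253 and 255 CPM in Smc4-positive cells of plates 1, 2 and 3, against 101, 176 and 142 in Smc4-negative cells, and the groups did not overlap, as for 6.55% of all tested genes in that direction. The log2 difference of 0.84 (SE 0.24) did not pass (edgeR adjusted p = 0.0918), and 4 other random thinnings gave 0.12 to 0.66. Smc3 had 181, 126 and 141 CPM in positive cells, against 101, 81.8 and 94.4 in negative cells (log2 0.62, SE 0.29, edgeR adjusted p = 0.531), again without overlap, and the 4 other thinnings gave 0.09 to 0.49. Smc1a (-0.11, SE 0.26) and Smchd1 (0.07, SE 0.25) had no common direction over the plates. Smc2, the ATPase partner, had 0, 3 and 13 UMIs in positive cells and 2, 1 and 4 in negative cells and was too low to test.

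**Figure D5:**
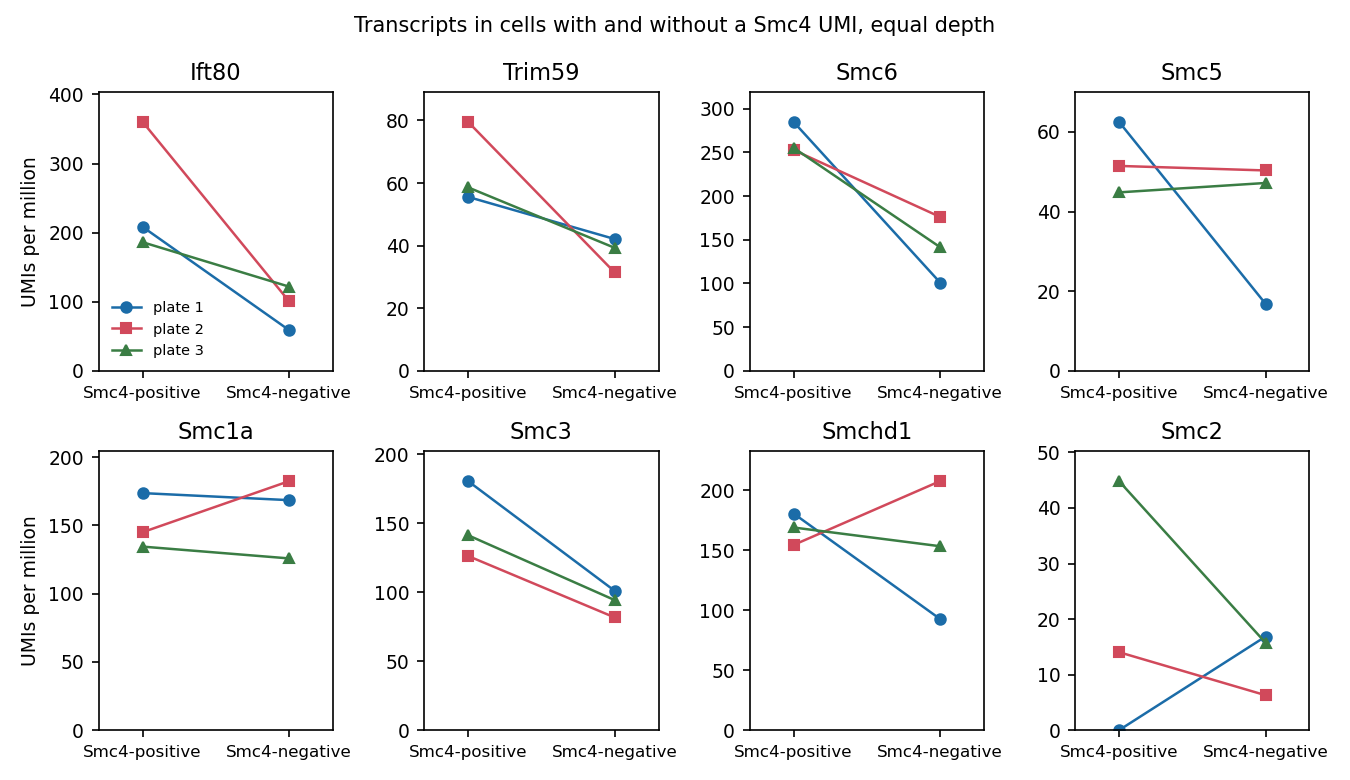
Levels of the neighbours of Smc4 and of the other members in Smc4-positive and Smc4-negative cells at equal depth, in UMIs per 1000000, a line per plate. Ift80 is higher in Smc4-positive cells on each plate, as are Trim59, Smc6 and Smc3 without passing the test, and Smc1a and Smchd1 are lower there on plate 2 alone.

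Of the other 11 called genes, 2 are mitochondrial ribosomal RNAs, 5 encode ribosomal proteins and 4 share no group. The mitochondrial ribosomal RNAs mt-Rnr1 and mt-Rnr2 rose in Smc4-positive cells by log2 0.38 (SE 0.068) and 0.27 (SE 0.061), and so did Pip4k2a (1.14, SE 0.28), a lipid kinase, Atp6v1d (0.89, SE 0.22), a subunit of the lysosomal proton pump, and Ms4a4b (0.44, SE 0.11), a T cell membrane protein. The ribosomal protein genes Rpsa (-0.37), Rpl12 (-0.32), Rpl10 (-0.30), Rpl13 (-0.30) and Rps24 (-0.27) fell, as did Igfbp4 (-0.53, SE 0.13), which encodes a secreted binding protein of insulin-like growth factors. In the thinning used here, 73 of 74 ribosomal protein genes tested were below 0, with a median of -0.20, while 1479 of all 2930 tested genes were. The list was made after the calls were seen and holds the 5 called genes. As a whole it was not followed in the other thinnings. The share of UMIs from all 86 ribosomal protein genes counted was 17.6%, 17.9% and 17.1% in Smc4-positive cells of plates 1, 2 and 3, against 19.2%, 20.7% and 18.7% in Smc4-negative cells. The median UMIs per cell before thinning, 4856, 5871 and 4624 in positive and 4780, 6315 and 4897 in negative cells, had no common direction. High CD5 cells made up 29.4%, 23.8% and 27.0% of positive and 21.4%, 29.3% and 14.2% of negative cells, and the part of CD5 in these differences was not tested. The count of 12 was 0 with DESeq2, 3 without plate 2 and 5 without plate 3. Of 16 alternatives mt-Rnr1 was called in 9, Rpsa in 7, mt-Rnr2 in 6, Igfbp4 in 5, Rpl12 and Rpl13 in 4, Atp6v1d, Ms4a4b and Rps24 in 3 and Rpl10 in 2, and Pip4k2a was called in 2 of 15. In 4 other random thinnings most of these differences were smaller. They lay between 0.11 and 0.33 for mt-Rnr1, 0.12 and 0.26 for mt-Rnr2, 0.36 and 0.71 for Pip4k2a, 0.00 and 0.27 for Ms4a4b and 0.61 and 0.88 for Atp6v1d. The 4 thinnings gave -0.27 to -0.17 for Rpsa, -0.22 to -0.10 for Rpl12, -0.25 to -0.13 for Rpl10, -0.24 to -0.11 for Rpl13 and -0.25 to -0.12 for Rps24, against -0.74 to -0.48 for Igfbp4.

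Partner genes of the SMC complexes did not pass in this split. Of the 13 partners tested 0 were called and 9 were positive, with a median log2 of 0.14 against -0.003 for all tested genes. Topoisomerase Top2b, which is on no partner list, had 340.5, 314 and 376 CPM in Smc4-positive cells, against 143, 201 and 224 in Smc4-negative cells. Its log2 difference of 0.78 (SE 0.21, edgeR adjusted p = 0.0606) did not pass.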

How the data were processed

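Levels and class differences are descriptions because the members were chosen by them, and the members and gene lists were chosen with earlier results of these data known. Single cells were sequenced by SORT-seq, CEL-Seq2 chemistry in plates, with UMIs of 6 bases. Reads were mapped with BWA (version unstated) to mm10, per the submitters' processing notes. The authors deposited expected counts, transcripts estimated per gene and cell from distinct UMIs, with no scaling between cells, and a CD5 fluorescence signal per cell on the cytometer's scale. They also deposited a CD5 class per cell, and a primer sheet that was not used here. Nothing here states their filters on cells and genes. Wells held sorted singlets and no doublet caller was run.

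Here the 84 spike-in transcripts (19.6% of all counts) were left out, and the estimated counts deposited by the authors were summed over the cells of a plate and group and rounded to whole numbers. CPM is the sum per 1000000 UMIs. Groups were CD5 class (9 sums, whose dispersion all classes shared), RNA-rich and RNA-poor cells at each plate's median, and Smc4-positive and Smc4-negative cells after thinning to 2119 UMIs, the 20% quantile of totals. Genes were tested with edgeR 4.0.16 in R 4.3.3 (TMM, filterByExpr, quasi-likelihood, plate as a block, Benjamini-Hochberg threshold 0.05, two-sided), and an SE is the log2 difference divided by the square root of F. The groups of a plate are pieces of 1 library, which is where the pairing comes from. DESeq2 1.42.0 was an alternative. The procedure was tested on simulated counts with a common dispersion and changes larger than those called in the Smc4 split. It was not tested for changes of their size. Tables and figures used Python 3.11.15 with numpy 2.4.6, pandas 2.3.3, scipy 1.17.1 and matplotlib 3.10.9. Intervals are exact at 95% and cover counting error only.

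Named genes are the 7 members, up to 4 partners per list by level, up to 8 called genes per direction that had 1 sign in 3 of 3 plates, the 5 genes most like Smc4 and genes that overlap a member. The flanking genes Ift80, Trim59, Ribc1 and Gen1, the topoisomerases and the cohesin and SMC5/6 partners below the first 4 were named after their values were seen. Positions are those of GENCODE M21 (GRCm38, which is mm10), and 13450 genes of the table matched it by symbol.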

Additional observations from a re-analysis of the deposited data

How the results depend on the processing

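The count of genes called between CD5 High and Low cells (9) was 0 by DESeq2 (147 with a raw p under 0.05), 0 with no replicate block, 0 without cells that held a cycling UMI, 1 without the cell of highest Kcnq1ot1 count, 16 with no filter, and 0 to 20 when 1 plate was left out (20 without plate 2). The count between RNA-rich and RNA-poor cells (24) was 5 by DESeq2, 0 with no replicate block, 14 with thinned cells and 0 to 14 with 1 plate left out. The count between Smc4-positive and Smc4-negative cells (12) was 0 by DESeq2 (48 with a raw p under 0.05), 0 with no replicate block, 6 with a mean of at least 50 counts, 4 without the highest Kcnq1ot1 cell, 1 without cycling cells, 1 with cells thinned to 4244 UMIs, 0 and 1 in 2 of the other random thinnings, which were added after seeing the data along with the split at 2 or more Smc4 UMIs, and 3 to 11 with 1 plate left out. Those calls are therefore tied to the block, and for the last split also to the thinning. None of the genes called in the Smc4 split changed sign in an alternative. The Smc4 level was 648 to 746 CPM with 1 plate left out and 164 per kb of transcript. Of the alternatives to the 7 levels, 48 moved a level by less than its spread between plates and 8 by more. The 8 were the division by length for each member, and thinning for Smc1a (154 CPM). Division by length changes the unit, so it was bound to move each level. Of the alternatives to the class differences 46 moved a value by less than that spread, and 2 by more: Smchd1 with thinned cells and Smc5 without cycling cells (-1.04). The causes were not tested.

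Depth limits Smc2 (60 UMIs in all cells) most: its class and group differences cannot be read. With 3 plates, a plate that runs against the others, as plate 2 does for Smc4 and Smc3 over CD5, leaves a difference smaller than the spread.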
